A study of Homo sapiens with 4 samples.

Results

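Among the transcripts that crosslink most strongly to the helicase DHX36, a small group is bound almost entirely in the 3′ untranslated region (3′UTR). The group was selected on its FH-DHX36-E335A values: a gene had to carry at least 2000 crosslinked reads in that PAR-CLIP, with at least 95% of them assigned to the 3′UTR. The rule was met by 142 genes, which is 13.2% of the 1073 genes with at least 2000 reads among 26490 listed genes. The read number, 3′UTR share and cluster numbers from FH-DHX36-E335A are therefore given as a description, and the FH-DHX36 columns of the same genes, the annotated lengths and the 3′UTR sequences are what the selection did not use.

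PAR-CLIP crosslinks proteins to RNA in living cells that have taken up 4-thiouridine, so that a bound RNA fragment is read with T-to-C conversions, and overlapping converted reads are grouped into clusters. It was carried out in HEK293 cells, a human embryonic kidney line, with stable, tetracycline-inducible HA-Flag transgenes of DHX36. One line, FH-DHX36, is labelled DHX36-iso2 (the second splice isoform), and the other, FH-DHX36-E335A, is labelled DHX36-iso1 E335A (the first isoform with an exchange that inactivates the helicase). In these labels isoform and mutation cannot be told apart, and HEK293 cells also hold endogenous DHX36. Both lines received 500 ng/ml tetracycline for 15 h, then 365 nm light for 5 min and immunoprecipitation through the FLAG tag. Each line gave 2 libraries, but the table has 1 value per gene and line, so that no spread between replicates could be computed and no difference was tested. An untagged control was not analysed here. The table held 8752127 crosslinked reads for FH-DHX36-E335A and 2160413 for FH-DHX36, a depth ratio of 4.05.

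DHX36, also called RHAU, is a DEAH-box helicase that unwinds G-quadruplexes, folds in which G-rich stretches of RNA or DNA stack into planar tetrads. It was first described through its association with an AU-rich element, a 3′UTR signal for rapid mRNA decay. The 3′UTR follows the stop codon, is not read by translating ribosomes, and carries many of the elements through which RNA-binding proteins and microRNAs act on stability, translation and localisation.

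To show what G-rich stretches in these 3′UTRs look like, a pattern of 4 runs of at least 2 G, separated by gaps of 1 to 7 bases, was searched on the sense strand of the canonical transcript. The 9 stretches printed below are the match with most G within 30 bases in 5 genes that lead the group by FH-DHX36-E335A reads or leaned to that line, and in 4 genes with many FH-DHX36 reads or matches. They are from GENCODE release 44 on GRCh37, the build also called hg19, 5′ to 3′, with runs of G in capitals. The table does not place clusters within a 3′UTR, so a match is a description of the sequence and not a crosslinked site.
GLO1, chr6:38644475-38644490, minus strand: GGGaaaGGGGaGGaGG
UQCRH, chr1:46782374-46782391, plus strand: GGGtttGGcttaGGctGG
SLMO2, chr20:57609024-57609042, minus strand: GGatttGGGGGcGGtGGGG
POU3F2, chr6:99285027-99285044, plus strand: GGGGGaGGttatGGaGGG
MAP3K2, chr2:128062362-128062378, minus strand: GGtgtGGGGGtGGaGGG
FOXK1, chr7:4804195-4804213, plus strand: GGGGGGtGGGGGttGGaGG
WSCD1, chr17:6024879-6024901, plus strand: GGGGGcgtGGGGaagaGGGcaGG
PPP1R37, chr19:45650051-45650072, plus strand: GGGGGtgaatGGGaGGaGGGGG
ELL, chr19:18555502-18555527, minus strand: GGGGGagcaaaaGGcGGtgagagaGG

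A single stretch does not separate both sets, since the longest G runs of MAP3K2 and POU3F2 are as long as those of WSCD1, PPP1R37 and ELL. The number of matches varied between these genes, which is a description only, since matches were among the reasons for showing the second set. The 3′UTR of GLO1 held 1 match in 1370 nt, that of POU3F2 1 in 3253 nt, PPP1R37 12 in 723 nt, WSCD1 17 in 3766 nt, FOXK1 38 in 8978 nt and NAT8L 45 in 4962 nt. Genes with many FH-DHX36-E335A reads could also hold several, as did YKT6 with 11 in 2012 nt, LDOC1L with 13 in 4254 nt and ETV3 with 11 in 3650 nt, and UQCRH held 5.21 matches per kb against 4.51 in WSCD1.

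The 142 genes held 725927 FH-DHX36-E335A reads, 8.29% of all reads of that PAR-CLIP, and 15.2% of all its 3′UTR reads. Of their reads, 709066 lay in the 3′UTR, 7609 in the coding sequence (CDS), 1877 in the 5′UTR and 1628 in introns, and the remaining 5747 in none of these categories. CDS reads were present in 97 of the 142 genes (68.3%) and in 873 of the 931 other genes with at least 2000 reads (93.8%). Of these others, 235 had 80 to 95% of their reads in the 3′UTR, and 223 of those held CDS reads. Among all genes with an FH-DHX36-E335A cluster the share was 65.2%, at a median of 326 reads against 3557 in the members. That CDS reads were few in the members follows from the limit of 95%. Every read was in the 3′UTR in 21 members (14.8%), against 16.1% of all genes with such a cluster. The group was not confined to the deepest targets, since the share of genes at or above 95% was 13.1% from 2000 to 4000 reads, 12.5% from 4000 to 8000 reads and 15.4% above 8000 reads. Just inside the limits were AGO4 with 2019 reads and NRARP with 5945 of 6257 reads in the 3′UTR, and just outside were PEX26 with 1999 reads and FEN1 with 10009 of 10543.

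GLO1, glyoxalase I, which detoxifies methylglyoxal, led the group by a wide margin. It carried 58038 FH-DHX36-E335A reads, of which 56487 lay in 7 clusters of the 3′UTR, and 2421 FH-DHX36 reads, of which 2317 lay in 12 clusters of the 3′UTR and 104 in the 5′UTR. UQCRH, the hinge subunit of respiratory complex III, followed with 22043 FH-DHX36-E335A reads and 4581 FH-DHX36 reads, and each FH-DHX36 read was in a single 3′UTR cluster. UQCRH has 4 annotated pseudogenes named after it, so the assignment of its reads is less certain than that of GLO1, which has none. SLMO2, a mitochondrial lipid-transfer protein annotated as PRELID3B, carried 14995 and 764 reads, and has 10 such pseudogenes. The sialomucin CD164 carried 13519 and 3805 reads, and EIF2S2, the β subunit of the initiation factor that brings the initiator tRNA to the ribosome, 13385 and 2246 reads. EIF2S2 has 7 such pseudogenes.

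The next 5 genes by FH-DHX36-E335A reads were of lower mRNA abundance, from 1.64 FPKM in POU3F2 to 19.7 FPKM in YKT6, than the first 5, which lay between 26.2 FPKM in CD164 and 1327 FPKM in UQCRH. ETV3, a repressor of the ETS family, carried 12863 FH-DHX36-E335A and 1479 FH-DHX36 reads, LDOC1L, a retrotransposon-derived Gag-like gene, 11395 and 491 reads, and POU3F2, a neural POU-domain factor, 10990 and 246 reads. MAPK1IP1L carried 10934 and 519 reads and YKT6, a SNARE of the Golgi and endosomes, 10643 and 2097 reads. In all 10 genes the FH-DHX36-E335A value was the higher, as the depth ratio alone would give for equal binding, and the FH-DHX36 values, by which they were not ranked, ranged from 246 to 4581 reads.

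**Figure D1:**
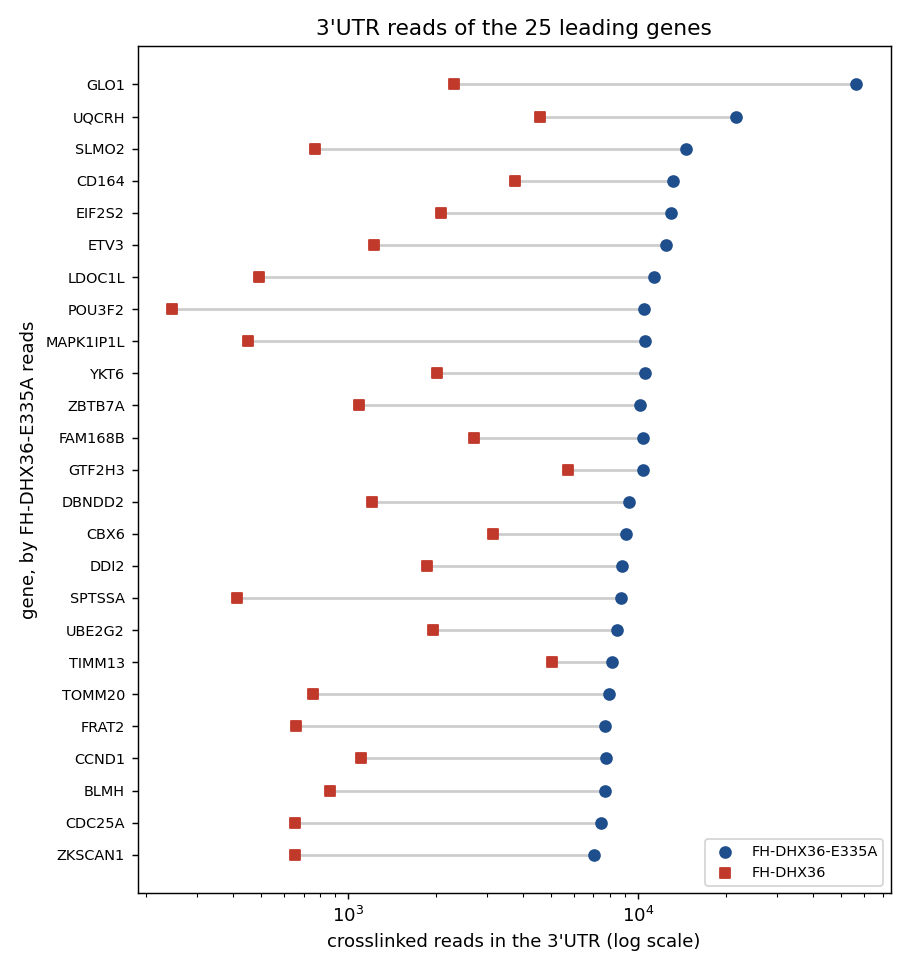
Crosslinked reads in the 3′UTR (log scale, reads as deposited and not scaled for depth) of the 25 genes with most FH-DHX36-E335A reads in the group; circles are FH-DHX36-E335A, squares FH-DHX36, and each point is 1 pooled value. GLO1 stands apart at 56487 reads, and the gap between both points is narrowest for TIMM13 and GTF2H3 and widest for POU3F2.

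Reads per 3′UTR cluster ranged more widely than the read totals, from 112 to 10859. The median gene had 8 FH-DHX36-E335A clusters in the 3′UTR, with a range of 1 to 32, and 465 reads per 3′UTR cluster, with quartiles of 303 and 821. The other 931 genes with at least 2000 reads had a median of 198 reads per 3′UTR cluster over the 863 with such a cluster, and all 7162 genes with a 3′UTR cluster a median of 66.0. Genes at 80 to 95% in the 3′UTR lay between, with 307. Since members had to place nearly all of at least 2000 reads in the 3′UTR, a high value per cluster follows in part from the selection. The FH-DHX36 columns, which were not selected on, gave a median of 182 reads per 3′UTR cluster in the 139 members with one, 122 in the genes at 80 to 95% and 86.3 in all other genes with at least 2000 FH-DHX36-E335A reads.

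At one end stood genes with few, deep clusters. UQCRH had 2 FH-DHX36-E335A clusters of 10859 reads on average, in an annotated 3′UTR of 192 nt, and GLO1 7 clusters of 8070 reads. ZNF76, a zinc-finger transcription factor, had 5869 reads in 1 cluster, DBNDD2 3 clusters of 3094 reads on average, and TIMM13, a small chaperone of mitochondrial import, 3 clusters of 2704 reads on average. The 3′UTR of DBNDD2 is shared with the annotated read-through gene SYS1-DBNDD2. In 7 genes the 3′UTR held 1 cluster: ZNF76, AUP1, ARPC3, SFXN4, HOXC4, PSMD13 and LTBP1, of which AUP1 has the shortest 3′UTR of the group at 148 nt.

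At the other end stood long 3′UTRs with many shallow clusters. FOXK1, a forkhead factor, had 32 clusters of 144 reads on average, the activin receptor ACVR2B 31 clusters of 177 reads, the protease DDI2 29 of 303 reads, ZKSCAN1 29 of 242 reads and FAM168B 25 of 416 reads. The fewest reads per cluster were found in KCTD20 with 112, the spindle-checkpoint protein MAD2L1 with 130, the xylosyltransferase GXYLT1 with 131, the RNA-binding protein CELF1 with 134 and the Argonaute AGO1 with 136. GXYLT1 and MAD2L1 have 6 and 1 annotated pseudogenes, and the 3′UTR of DDI2 meets the coding gene RSC1A1 on the same strand. Across the members the number of 3′UTR clusters followed 3′UTR length with a rank correlation of 0.716 over 141 genes, as it did in the other strongly bound genes, where it was 0.743 over 924. The rank correlation of cluster number with reads per cluster was −0.698 over 142 genes, and both measures contain the cluster number.

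**Figure D2:**
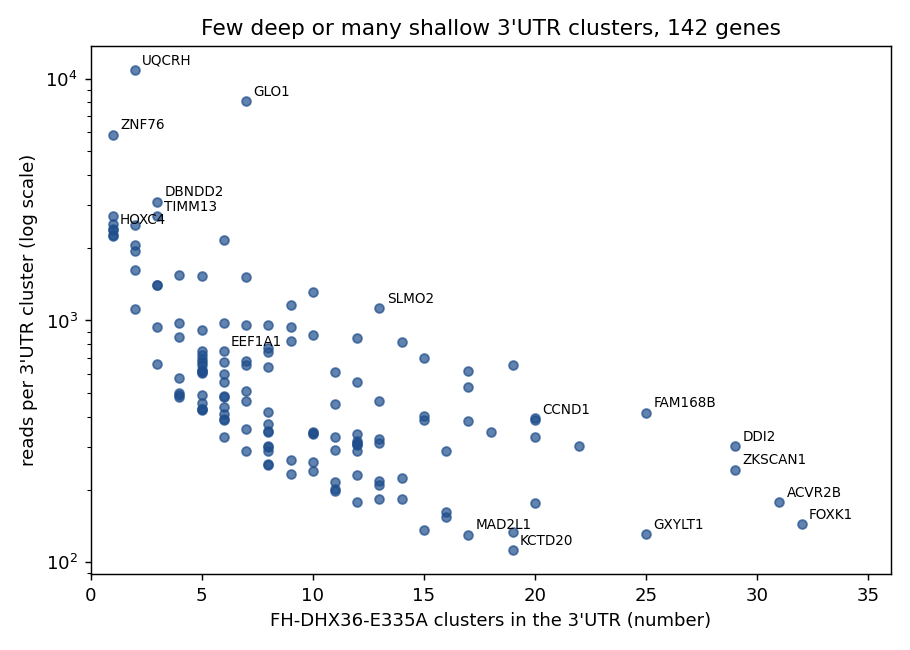
Number of FH-DHX36-E335A clusters in the 3′UTR against the mean number of reads per 3′UTR cluster (log scale), with 1 point for each of the 142 genes. UQCRH and GLO1 sit at the top with 10859 and 8070 reads per cluster, and FOXK1 at the far right with 32 clusters of 144 reads. The lower edge of the cloud is set by the limit of 2000 reads.

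The FH-DHX36 columns of the same genes also lay mainly in the 3′UTR. An FH-DHX36 cluster was present in 139 of the 142 members, and in each of these at least 1 cluster was in the 3′UTR. The other strongly bound genes had an FH-DHX36 cluster as often, 914 of 931, but a 3′UTR cluster in 740. Those at 80 to 95% in the 3′UTR were like the members, with an FH-DHX36 3′UTR cluster in 227 of 235. Across all genes with an FH-DHX36-E335A cluster 33.4% had an FH-DHX36 cluster in the 3′UTR, and 62.1% had any FH-DHX36 cluster. The 3 members without one were RNF11, a RING-finger protein, with 2839 FH-DHX36-E335A reads, C14orf119 with 2055 and AGO4, an Argonaute, with 2019. All of them were below the median of 3557 FH-DHX36-E335A reads. The table gives reads only for genes with called clusters, the smallest value above 0 in the FH-DHX36 columns being 6, so a gene at 0 is not shown to be unbound.

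Of the 139 members, which each had at least 20 FH-DHX36 reads, 91 (65.5%) had at least 95% of these reads in the 3′UTR, against 21.1% of all 5690 genes with at least 20 FH-DHX36 reads. Among genes with 80 to 95% of their FH-DHX36-E335A reads in the 3′UTR the count was 63 of 228 (27.6%), and among all other genes with at least 2000 FH-DHX36-E335A reads 110 of 913. In 72 of the 139 members (51.8%) every FH-DHX36 read was in the 3′UTR, against 45 of 228 genes at 80 to 95%, 81 of 913 other strongly bound genes and 1088 of all 5460 genes with an FH-DHX36-E335A cluster and at least 20 FH-DHX36 reads. The median member had 100% of its FH-DHX36 reads there, with a lower quartile of 91.8%, whereas the median of the other strongly bound genes was 38.8%. Summed over members, 141774 of 148124 FH-DHX36 reads (95.7%) were in the 3′UTR, 2235 in the CDS, 1504 in the 5′UTR and 1577 in introns. In the other strongly bound genes 36.1% of the FH-DHX36 reads were in the 3′UTR and 27.8% in the CDS. CDS reads from FH-DHX36 were listed for 35 members (25.2%), 126 of 228 genes at 80 to 95% (55.3%) and 626 of the 913 other genes (68.6%). Of all 5460 genes with an FH-DHX36-E335A cluster and at least 20 FH-DHX36 reads, 48.3% had them. Both PAR-CLIPs share a gene's annotation and its mRNA level, so they are not independent views of a transcript.

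**Figure D3:**
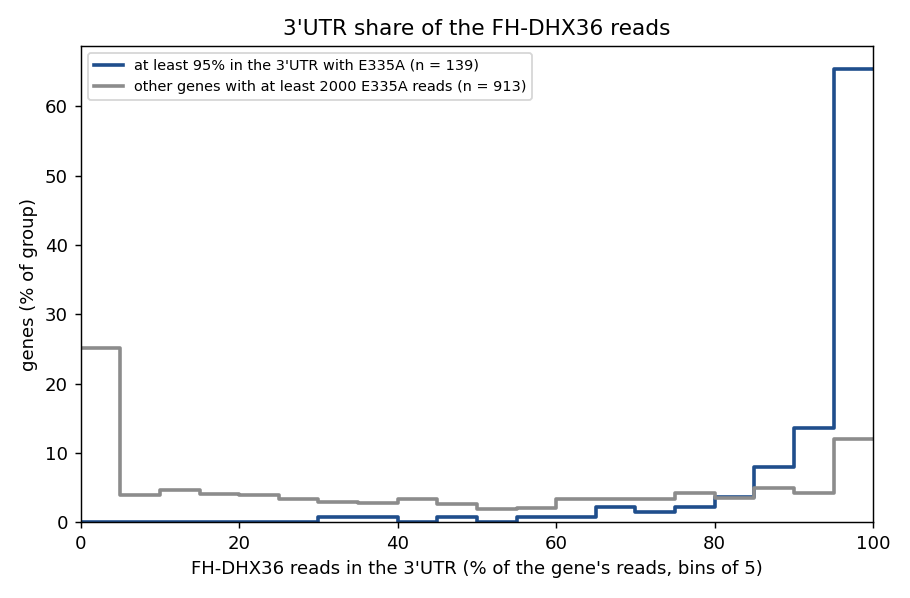
Share of each gene's FH-DHX36 reads that lay in the 3′UTR, in bins of 5 percentage points, as a percentage of the genes in each group with at least 20 FH-DHX36 reads. The 139 selected genes pile up in the last bin (65.5%), and the 913 other genes with at least 2000 FH-DHX36-E335A reads are spread over the whole axis.

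The 3′UTR share of FH-DHX36 reads was under 50% in 35 of 228 genes at 80 to 95% (15.4%) and in 520 of 913 other strongly bound genes (57.0%). Of all 5460 genes with an FH-DHX36-E335A cluster and at least 20 FH-DHX36 reads, it was under 50% in 63.4%. Among the members it was so in 3 of 139 (2.2%), and in each of these 3 the missing reads were intronic. RNF145, an E3 ligase of the endoplasmic reticulum, had 100 of 292 FH-DHX36 reads in the 3′UTR (34.2%, 95% Wilson interval 29.0 to 39.9%, counting error only) and 192 in introns. RAB11FIP5, an effector of the recycling GTPase RAB11, had 39 of 102 reads in the 3′UTR and 63 in introns, although each of its 2350 FH-DHX36-E335A reads was in the 3′UTR. AFF4, the scaffold of the super elongation complex, had 142 of 313 in the 3′UTR and 171 in introns. The next in order were VTI1B, a SNARE, with 134 of 240 reads, 78 of the rest in no category, and IRS2, the insulin receptor substrate, with 243 of 378 and the remaining 135 in the CDS. A 3′UTR of RAB11FIP5 also meets the coding gene SFXN5 on the same strand.

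By FH-DHX36 reads the order of the group was another one. GTF2H3, a subunit of the repair and transcription factor TFIIH, led with 5711 reads in 3 clusters, all in the 3′UTR, followed by TIMM13 with 5269, UQCRH with 4581, WSCD1 with 4433 and PPP1R37, a regulator of protein phosphatase 1, with 4042. Of these, UQCRH alone was among the 10 genes with most FH-DHX36-E335A reads. The rank correlation of the 3′UTR reads between both lines was 0.453 over the 142 members and 0.654 over the other 931 strongly bound genes, a group whose 3′UTR reads could also be few or none. FH-DHX36 clusters in the 3′UTR outnumbered those of FH-DHX36-E335A in 10 of 142 members (7.0%). This count was not made for other genes, so it is not known whether the share is unusual. Among the 10 were GLO1 and CBX6, a chromobox protein of Polycomb complexes, which had 29 clusters against 17.

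To compare both lines, whose depths differ, reads were scaled to 1000000 crosslinked reads of each PAR-CLIP. The median member had a log2 ratio of FH-DHX36-E335A over FH-DHX36 of 0.77, and the genes at 80 to 95% in the 3′UTR a higher one, 0.95. It was 0.61 in all other strongly bound genes and 0.12 in all 5669 genes with a cluster in both. Selection on FH-DHX36-E335A reads raises this ratio in each of the strongly bound groups. Scaled reads were more than 2-fold higher with FH-DHX36-E335A in 64 of 139 members (46.0%) and 110 of 228 genes at 80 to 95% (48.2%). The same held for 28.6% of all genes with a cluster in both and 338 of 914 other strongly bound genes. Scaled reads were more than 2-fold higher with FH-DHX36 in 20 members (14.4%) and 11 of 228 genes at 80 to 95%. This was so for 24.8% of all genes and 95 of 914 other strongly bound genes. Scaled to the 3′UTR reads of each PAR-CLIP instead, every log2 ratio is lower by 0.47, and 38 members were then more than 2-fold higher with the mutant and 28 with FH-DHX36, against 18.7% and 34.0% of all genes.

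The strongest leaning to FH-DHX36-E335A was that of MAP3K2, a kinase of the MAPK cascades, with 3240 FH-DHX36-E335A and 57 FH-DHX36 reads (log2 3.81). ARPC3, a subunit of the actin-nucleating Arp2/3 complex, had 2555 and 49 reads (log2 3.69), the phosphate transporter SLC20A1 3875 and 77 reads (log2 3.63), and POU3F2 a log2 ratio of 3.46. In MAP3K2, ARPC3 and POU3F2 every FH-DHX36 read was in a single 3′UTR cluster, and in SLC20A1 57 of 77 were. ARPC3 has 5 annotated pseudogenes and SLC20A1 has 3. With 49 to 77 FH-DHX36 reads, the ratios of ARPC3, MAP3K2 and SLC20A1 rest on the 3 smallest FH-DHX36 counts of the group above 0.

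In the opposite direction stood PPP1R37, with 2378 FH-DHX36-E335A and 4042 FH-DHX36 reads (log2 −2.78), WSCD1 with 3589 and 4433 reads (log2 −2.32), and NAT8L, the enzyme that makes N-acetylaspartate, with 3548 and 3850 reads (log2 −2.14). These 3 of 139 members (2.2%) were the only ones with more FH-DHX36 than FH-DHX36-E335A reads before scaling, at a depth ratio of 4.05. The same held for 2 of 228 genes at 80 to 95% and 21 of 914 other strongly bound genes (2.3%). Across all 5669 genes with a cluster in both it held for 10.7%, so the count was not high among the members. DOLPP1, a dolichyl pyrophosphate phosphatase, had 2460 and 2329 reads (log2 −1.94), and the elongation factor ELL 4106 and 3706 reads (log2 −1.87). In WSCD1, DOLPP1 and ELL every FH-DHX36 read was in the 3′UTR, and in NAT8L and PPP1R37 all but 21 and 176. The 3′UTR of PPP1R37 meets the coding gene MARK4 on the same strand.

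The G-run pattern went along with this balance. Its median density was 1.43 matches per kb of 3′UTR in the 63 annotated members more than 2-fold higher with FH-DHX36-E335A, 2.53 in the 55 members within 2-fold and 4.22 in the 20 members more than 2-fold higher with FH-DHX36. The median G content of the 3′UTR was 19.9%, 23.3% and 27.8% in the same order, and the median density of the AU-rich pentamer ATTTA, a pattern chosen after values had been seen, went the other way with 2.29, 1.79 and 1.39 per kb. Across 138 members the rank correlation of the log2 ratio with G-run density was −0.420, with G content −0.459 and with ATTTA density 0.291. In the other 904 strongly bound genes the same values were −0.230, −0.324 and 0.273. G runs, G content and ATTTA share the base composition of the 3′UTR, so that these are not separate observations. Scaling moves every ratio by one constant and leaves these rank correlations as they are.

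**Figure D4:**
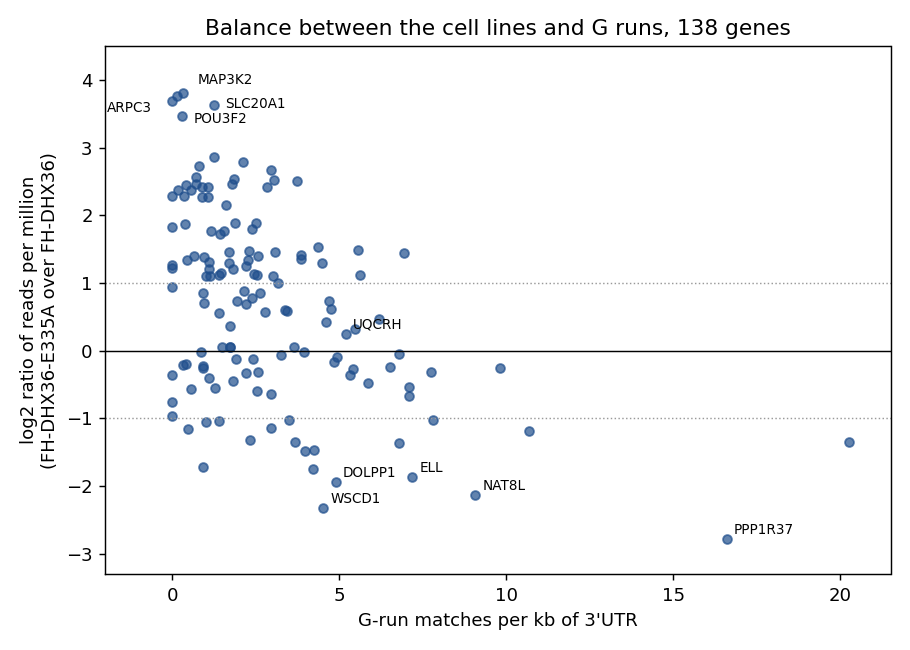
Matches of the G-run pattern per kb of 3′UTR against the log2 ratio of scaled reads, FH-DHX36-E335A over FH-DHX36, with 1 point for each of 138 genes; dotted lines mark 2-fold. PPP1R37, WSCD1, NAT8L, DOLPP1 and ELL lie at the bottom with ratios from −2.78 to −1.87, and the genes with the highest ratios, MAP3K2, ARPC3, SLC20A1 and POU3F2 among them, lie towards the left edge.

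Compared with the other strongly bound genes, the members had 3′UTRs that were somewhat longer and CDSs that were shorter. The median 3′UTR was 2346 nt against 1966 nt, and the median CDS 927 nt against 1223 nt. The 3′UTR was longer than the CDS in 117 of 141 members (83.0%) and in 571 of 924 others (61.8%). Those at 80 to 95% in the 3′UTR were near the members in this, with 188 of 235, so the trait was not particular to the members. No member had a 3′UTR that made up 95% of its transcript, which is the share its reads had to reach. The 3′UTR made up a median of 70.4% of the member transcripts, at most 93.6%, and under 50% in 32 of them. The genes at 80 to 95% had the longer 3′UTRs, with a median of 2902 nt, and a median of 65.5% of the transcript. Among the members the 3′UTR ranged from 148 nt in AUP1 to 11463 nt in CSNK2A1, the catalytic subunit of casein kinase 2. These lengths are from a later GENCODE release than the one used to categorise the clusters, and 1 member, MLXIP, had no canonical protein-coding transcript in it.

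**Figure D5:**
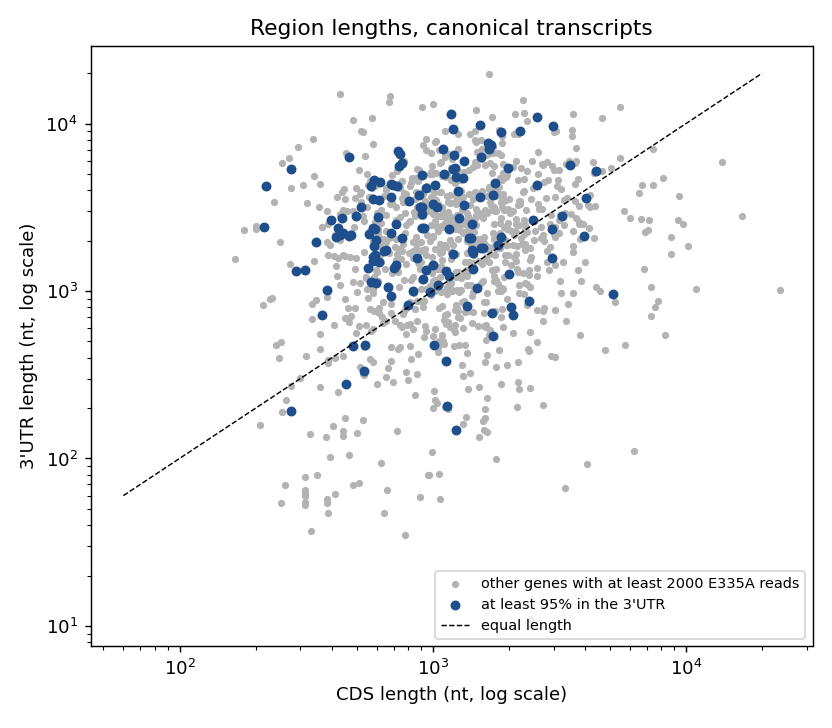
Annotated CDS length against 3′UTR length, both in nt on log scales, for 141 selected genes and for the other genes with at least 2000 FH-DHX36-E335A reads; the dashed line marks equal length. Of the selected genes 117 lie above the line, and those below it include AUP1 at 148 nt of 3′UTR.

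A match of the G-run pattern was present in the 3′UTR of 131 of 141 members (92.9%) and of 724 of 921 other strongly bound genes (78.6%), and in 226 of 235 (96.2%) of those at 80 to 95%. Per kb the members had a median of 2.20 matches, the genes at 80 to 95% 1.33, the other strongly bound genes 1.12 and all genes with a 3′UTR cluster 1.24. Runs of at least 3 G, the stricter pattern, were found in 43 members (30.5%), in 60 of 235 genes at 80 to 95% (25.5%) and in 20.4% of the others. Among all genes with an FH-DHX36-E335A cluster and an annotated 3′UTR they were found in 15.6%. ATTTA was found in 123 of 141 members (87.2%), near the 84.3% of the others, and in 92.8% of the genes at 80 to 95%. Its median density was 1.86 per kb in the members, 2.36 in the others and 2.60 in the genes at 80 to 95%. The 10 annotated members without a G-run match were EEF1A1, RPL15, RAC1, CHCHD2, ARPC3, SEC11A, EIF4E, RNF11, LEPROTL1 and LTBP1, and their FH-DHX36-E335A reads ran from 2241 to 4472.

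Across the members the rank correlation of recovered mRNA abundance with FH-DHX36-E335A reads in the 3′UTR was 0.158 over 142 genes, and in the other strongly bound genes it was −0.259 over 931. The abundance was recovered from reads and NXPM (the authors' score, crosslinked reads scaled to the PAR-CLIP total over mRNA abundance). Its median was 7.52 FPKM in the members and 15.1 in the other strongly bound genes, and accordingly the median FH-DHX36-E335A NXPM was 63.2 against 32.5. The genes at 80 to 95% in the 3′UTR were near the members, with medians of 9.35 FPKM and an NXPM of 56.6. Among the members the range was wide. EEF1A1, the elongation factor that delivers tRNA to the ribosome, was at 2708 FPKM with 4472 FH-DHX36-E335A reads and a score of 0.19, and RPL15 at 1779 FPKM with 3475 reads. POU3F2, at 1.64 FPKM, had the highest FH-DHX36-E335A score, 766, and ACVR2B and ETV3 had 725 and 697. By the FH-DHX36 score FOXK1 led with 1196, followed by NAT8L with 750, ELL with 731 and ACVR2B with 697. EEF1A1 and RPL15 have 49 and 21 annotated pseudogenes and are uncertain.

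By function the group was mixed, and the lists used here were drawn up with earlier results of these data known. Respiratory-chain, mitochondrial import and mitochondrial ribosome genes made up 5 of the 22 such genes with at least 2000 reads. Besides UQCRH and TIMM13 these were TOMM20, an import receptor, with 8049 FH-DHX36-E335A and 858 FH-DHX36 reads, CHCHD2 with 3350 and 1608, and the ribosomal protein MRPL38 with 2223 and 613. Translation factors gave 3 of 12, namely EIF2S2, EEF1A1 and the cap-binding protein EIF4E, whose 2500 and 266 reads were 96.8% and 100% in the 3′UTR. TOMM20, CHCHD2 and EIF4E have 4, 10 and 5 annotated pseudogenes. The SR splicing factors gave 2 of 7, SRSF6 and SRSF2. Both kept FH-DHX36 reads outside the 3′UTR, and in SRSF2 359 of 533 were inside.

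Cytosolic ribosomal proteins gave 1 of 20, RPL15, and none of the 13 histone cluster genes or of the 2 genes for 14-3-3 proteins with at least 2000 reads met the rule. Kinetochore and checkpoint genes gave 2 of 3, ZWINT and MAD2L1, phosphatase subunits and inhibitors 2 of 11, ENSA and PPP1R37, ZNF zinc fingers 3 of 33, solute carriers 4 of 12, ubiquitin E2 enzymes 1 of 10 and secretory-pathway genes 1 of 7. These shares lay on both sides of the 13.2% over all strongly bound genes, and no list was tested.

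Further pairs were noticed after the values had been seen. Both strongly bound Argonaute genes, AGO1 and AGO4, both CHMP genes of ESCRT-III, CHMP2B and CHMP1A, both BLOC-1 genes, BLOC1S2 and BLOC1S6, both ephrins, EFNA5 and EFNB2, and both ETS factors, ETV3 and ETS2, were members, as were 3 of 4 super elongation complex genes, AFF4, ELL and EAF1. Other sets noticed in this way were KLF factors with 2 of 3, TRIM proteins 2 of 4, RNF proteins 3 of 6 and ZBTB zinc fingers 2 of 7. The ZIP transporters and the Polycomb CBX and PHC genes gave 2 of 2 each. Since all these sets were formed around members, their shares cannot be set against the 13.2% over all strongly bound genes. The balance between the lines differed in sign within some of these sets and not in others. ELL had a log2 ratio of −1.87 and AFF4 of 2.27, CHMP1A of −1.34 and CHMP2B of 2.37, and EFNB2 of −0.45 and EFNA5 of 2.16, whereas ETV3 and ETS2 had 1.10 and 1.35, and BLOC1S2 and BLOC1S6 0.85 and 1.88. AGO4 has no ratio, since it had no FH-DHX36 cluster.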

How the data were processed

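PAR-CLIP of FH-DHX36 and FH-DHX36-E335A of HEK293 cells was performed by the authors, with 2 libraries per line. Reads were mapped to hg19, clusters were called with PARalyzer in PARpipe and categorised with GENCODE v19, and the submitters' processing notes name bcl2fastq 2.17.1. The deposited crosslinked read counts, in all and by annotation category, and numbers of clusters are not normalized and give 1 value per gene and line. In the study binding sites were those found in both replicates, and it was not tested whether the table is limited to them. Other program versions are not in the sources used here. The deposited NXPM score relates crosslinked reads, scaled to the PAR-CLIP total, to mRNA abundance. The table had 0 columns of other samples.

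The rule was applied to the table, and abundance was recovered as scaled reads over NXPM minus 0.001, for genes with a cluster. Its unit, FPKM, follows from the authors' RNA-seq quantification with Cufflinks. Identifiers were matched to GENCODE release 44 on GRCh37 through 22555 symbols, 37 Ensembl IDs and 1337 RefSeq synonyms (assembly GRCh38.p14, names only), and 2561 were not matched; 142 members were matched, 3 of them (SLMO2, LDOC1L, TMEM110) through synonyms, and 141 had a canonical protein-coding transcript. Annotated pseudogenes are named after 38 members, and the 3′UTR of 13 meets another coding gene on the same strand. Pattern matches were counted without overlap on the sense strand. The genes named are those with most FH-DHX36-E335A reads (10), most or fewest reads per 3′UTR cluster, most 3′UTR clusters, most FH-DHX36 reads, lowest FH-DHX36 3′UTR share (at least 100 reads) and highest or lowest ratio (at least 20 reads), 5 each, those without an FH-DHX36 cluster, and up to 3 of each list. Other genes were named after their values were seen. Some items that this rule names are not reported here.

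Members and lists were chosen with earlier results of these data known. Tests planned for replicate columns were not run, since the table has 1 value per line, and groups of genes were compared by counts and medians. The scripts were tested on simulated data. Python 3.11.15, pandas 2.3.3, numpy 2.4.6, SciPy 1.17.1 and matplotlib 3.10.9 were used.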

Additional observations from a re-analysis of the deposited data

How the results depend on the processing

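Of 23 alternatives, 13 left the value within the range taken as unchanged and 10 moved it. The number of genes followed the limits: 263 with at least 1000 reads, 58 with at least 4000, 240 at 90% or more in the 3′UTR, 41 at 99% or more, and 275 when the share was taken of exonic reads. The median of reads per 3′UTR cluster moved to 318 with at least 1000 reads and to 720 with at least 4000. The FH-DHX36 3′UTR share was 95.7% when reads were summed in place of a median over genes. The median log2 ratio was 0.30 when scaled to 3′UTR reads, and the median density of the G-run pattern was 0 per kb with runs of at least 3 G. With exonic reads as denominator 112 members reached 95% of FH-DHX36 reads in the 3′UTR (80.6%, against 22.0% of the other strongly bound genes). This share was higher than with all reads as denominator in the members and in the other strongly bound genes. With at least 100 FH-DHX36 reads 85 members reached 95% (64.4%, against 11.4% of the other strongly bound genes). With the longest transcript the median 3′UTR was 2384.5 nt against 2063 nt and the G-run density 2.21 against 1.16 per kb. No paired analysis was possible because each line has 1 combined value per gene, and leaving out each replicate could not be run for the same reason. Depth limits the ratios of genes with under 100 FH-DHX36 reads most, and intervals cover counting error only.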
